A study of Mus musculus with 12 samples.

Results

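The 7 genes described here are the glucose-sensing transcription factors MondoA (gene Mlxip) and ChREBP (Mlxipl), their binding partner Mlx, the alpha-arrestins Txnip, Arrdc4 and Arrdc3, and the zinc-finger factor Klf10. They were taken by symbol from a count table of 23366 mouse gene symbols, and the transcript of each with the largest sum of counts over 8 RNA-seq libraries was used. All 7 were in the table, and 6 of them, all but Mlxipl, were among the 13882 genes with enough counts to be tested. The libraries came from mouse embryonic fibroblasts, cells grown out of embryos, of strain C57BL/6 at passages 3 to 5. Cells were wildtype or Carm1 KO, a knockout of the gene for the arginine methyltransferase CARM1, and each genotype was sampled in nutrient-rich medium (time 0 h) and after 18 h of glucose starvation, with 2 libraries in each of the 4 groups. Rich medium was DMEM with fetal bovine serum, and starvation medium was glucose-free DMEM with dialyzed serum, so the media differed in the serum as well as in glucose. The labels give no rich-medium sample at 18 h and do not tell whether replicates are separate cultures or embryos. The p-values therefore rest on the spread of libraries that may be technical repeats.

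MondoA and ChREBP are basic helix-loop-helix leucine zipper proteins that pair with Mlx. When sugar phosphates made from glucose accumulate, the pairs occupy carbohydrate response elements in DNA and activate genes there. Txnip is the best known target of MondoA: its product binds thioredoxin and promotes removal of glucose transporters from the cell surface, so that it restrains glucose uptake. Arrdc4 is also a target of these factors and its product also lowers glucose uptake, while the product of Arrdc3 acts as an adaptor for the ubiquitination and trafficking of membrane receptors. Klf10 was first described as an early gene induced by TGF-beta and is also known as a ChREBP target in liver.

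The promoters of Txnip and Arrdc4 are shown because the responses of these 2 genes are the ones compared most closely below. RefSeq sequences of the GRCm38.p6 build, from 250 bases before to 50 bases after each annotated start, were matched for 6 of the 7 genes, all but Klf10. The stretches run 5′ to 3′ on the strand of the gene and end at the base before the start. Capitals mark a carbohydrate response element (in Txnip), an E box CACGTG (in Arrdc4) and the motif CCAAT, which reads ATTGG where it lies on the other strand.
Txnip, plus strand of chr3:96557817-96557956: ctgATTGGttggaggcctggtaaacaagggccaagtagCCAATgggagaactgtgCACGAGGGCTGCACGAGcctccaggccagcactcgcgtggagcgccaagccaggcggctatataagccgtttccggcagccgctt
Arrdc4, minus strand of chr7:68749239-68749438: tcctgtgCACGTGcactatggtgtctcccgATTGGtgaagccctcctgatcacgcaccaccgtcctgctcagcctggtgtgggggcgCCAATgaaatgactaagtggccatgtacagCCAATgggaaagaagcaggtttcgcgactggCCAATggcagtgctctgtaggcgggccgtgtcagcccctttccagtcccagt

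The carbohydrate response element was searched as 2 E-box-like parts separated by 5 bases, 17 letters of which 10 are fixed, on both strands. In Txnip the best match kept 9 of the 10 fixed letters and lay at positions -85 to -69, counted so that -1 is the base before the start. A match at least this close was present in 2.36% of 32851 promoter windows of the same length. In Arrdc4 the best match had 3 mismatches, a level reached by 85.2% of all windows. The Arrdc4 window held an E box CACGTG at -193, a motif present in 7.15% of windows. E boxes were also present in the windows of Mlx and of 1 of the 2 Mlxipl starts, and absent from those of Txnip, Arrdc3 and Mlxip. The motif CCAAT occurred 2 times in the Txnip window and 6 times in that of Arrdc4, 4 of them in the stretch shown. At least 2 copies were present in 11.7% of windows and at least 6 in 0.0791%. These are matches of letters and not measured binding sites, and CCAAT was added to the search after the sequences had been seen.

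Library totals over genes ran from 8447016 to 28155438 counts, the smallest in replicate 1 of the knockout rich group, and 3 counts correspond to 0.104 to 0.369 CPM (edgeR's counts relative to library size, on one common scale for all libraries). Carm1 stood at 164 to 207 CPM in the 4 wild-type libraries and at 48.1 to 70.8 CPM in the 4 knockout libraries. The knockout rich replicates lay far apart, with a standard deviation of the log2 ratio between replicates of 0.741 across genes, against 0.209 to 0.213 in the other groups. Cell type markers also separated the genotypes. Decorin (Dcn), which marks fibroblasts, was at 0.453 ± 0.115 CPM (SD, n = 2) in the wild-type rich group and at 1663 ± 412 CPM in the knockout rich group. Thy1, another fibroblast marker, was at 0.130 ± 0.118 and 129 ± 7.96 CPM. The collagen gene Col1a1 of the same list went the other way, from 2791 ± 23.3 to 1005 ± 285 CPM, and of the 8 fibroblast markers 5 were called higher in the knockout in rich medium, 1 lower and 2 not at all. The summed level of the 8 fibroblast markers was nevertheless of the same order in all libraries (4853 to 8567 CPM). The endothelial cadherin Cdh5 was at 0.0357 ± 0.0504 CPM in the former group and 140 ± 19.6 CPM in the latter, and the 4 endothelial markers summed to 2.09 to 5.02 CPM in wild-type and 132 to 245 CPM in knockout libraries. That sum was mostly Cdh5: the endothelial receptor gene Kdr went the other way, at 1.80 ± 0.0209 CPM in wild-type rich libraries and 0 counts in knockout rich ones. The 4 leukocyte markers summed to 2.14 to 5.23 CPM in wild-type and 5.90 to 6.77 CPM in knockout libraries. The 4 epithelial markers summed to 1.16 to 3.74 and 1.23 to 2.65 CPM, in the same order. Single markers went opposite ways. After starvation 3 leukocyte markers were called higher and 1 lower in the knockout, and 1 epithelial marker higher and 2 lower. Epcam had 26 and 65 counts in the wild-type rich and starved groups and 0 in both knockout groups. Krt14 had 2 and 4 counts in the former and 49 and 79 in the latter. The 4 adipocyte markers (at most 0.0861 CPM, Lep and Cidec at 0 counts) and the 4 hepatocyte markers (at most 1.89 CPM, Alb and Ttr at 0 counts) were close to 0. In comparisons of knockout with wild type, the effect of the genotype and these differences between the cultures cannot be told apart.

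Txnip fell on starvation in both genotypes, and its level in rich medium was 6.96-fold higher in the knockout. Wild-type rich libraries gave 20.4 and 20.5 CPM and wild-type starved libraries 5.62 and 6.30 CPM. Knockout rich libraries gave 141 and 144 CPM and knockout starved libraries 5.09 and 6.28 CPM. Replicates were close in every group, including the knockout rich pair (ratio 1.02), while the starved groups of the genotypes overlapped at the bottom of the range. The fall was 3.43-fold in wild-type cells (log2 fold change -1.78 ± 0.16 SE, adjusted p = 0.000504) and 25.03-fold in knockout cells (-4.65 ± 0.17, adjusted p = 0.000117). In knockout cells its log2 fold change ranked 38 from the lowest of 13882 genes. The difference in rich medium was 2.80 ± 0.16 (adjusted p = 2.59e-05). After starvation the genotypes differed by -0.07 ± 0.16 (adjusted p = 0.735), with a 95% interval from 0.735-fold to 1.24-fold. The starvation response itself differed between genotypes by -2.87 ± 0.22 (adjusted p = 0.000955). Every Txnip call was kept under all alternatives that were run, with 1 exception: a fit of the 4 knockout libraries alone put the fall in knockout cells at adjusted p = 0.0583. In bulk RNA, fewer cells with a transcript and less transcript per cell cannot be told apart.

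Txnip overlaps the RNA gene Gm15441 in the RefSeq annotation, and no source used here gives the strand used in counting, so reads of the 2 genes cannot be told apart. Gm15441, named here for this overlap after its values were seen, had 6.51 and 6.99 CPM in wild-type rich and 2.11 and 1.52 CPM in wild-type starved libraries. In the knockout it had 28.8 and 44.8 CPM in rich medium and 2.05 and 2.19 CPM after starvation. It was thus high in the same libraries as Txnip, at a log2 fold change of -1.90 ± 0.28 on starvation in wild-type cells and -4.12 ± 0.29 in knockout cells (adjusted p = 0.0031 and 0.000758).

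Arrdc4 went in opposite directions in the 2 genotypes. It rose 3.75-fold on starvation of wild-type cells, in which Txnip fell, and was 2.97-fold lower on starvation of knockout cells. Counts were low: 12 and 20 in wild-type rich, 58 and 73 in wild-type starved, 54 and 180 in knockout rich and 53 and 69 in knockout starved libraries. On the CPM scale these were 0.558 and 0.713, 2.31 and 2.53, 6.64 and 8.35, and 2.13 and 2.97, in the same order. Wild-type rich libraries were the lowest and knockout rich libraries the highest, and the starved groups overlapped in between. The log2 fold changes were 1.91 ± 0.31 in wild-type cells (adjusted p = 0.00438) and -1.57 ± 0.27 in knockout cells (adjusted p = 0.00983), and they differed by -3.48 ± 0.41 (adjusted p = 0.00325). In rich medium Arrdc4 was 11.7-fold higher in the knockout (3.55 ± 0.31, adjusted p = 0.000154), while after starvation the difference was 0.07 ± 0.27 (adjusted p = 0.845; interval 0.675-fold to 1.63-fold). The fall in knockout cells lost its call without knockout starved replicate 1 (-1.35, adjusted p = 0.098), without replicate 2 (-1.82, adjusted p = 0.0634), in a fit of the 4 knockout libraries alone (adjusted p = 0.105) and with the other transcript (adjusted p = 0.0729). That transcript, NM_025549, held 46.6% of the counts of the one used. It had 0.279 and 0.321 CPM in wild-type rich, 1.59 and 1.90 in wild-type starved, 1.60 and 3.39 in knockout rich and 0.642 and 1.29 CPM in knockout starved libraries.

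Arrdc3 did not pass the test on starvation of wild-type cells and fell in knockout cells. Its levels were 14.1 and 14.3 CPM in wild-type rich and 13.4 and 13.3 CPM in wild-type starved libraries. Knockout rich libraries had 77.3 and 62.3 CPM and knockout starved libraries 26.1 and 29.4 CPM. Each knockout library was above each wild-type library, and among knockout libraries the rich pair was above the starved pair. Starvation changed Arrdc3 by -0.09 ± 0.16 in wild-type cells (adjusted p = 0.712; interval 0.721-fold to 1.22-fold) and by -1.33 ± 0.16 in knockout cells (adjusted p = 0.00344). It was 4.89-fold higher in the knockout in rich medium (2.29 ± 0.17, adjusted p = 7.35e-05) and 2.07-fold higher after starvation (1.05 ± 0.16, adjusted p = 0.00143). The responses differed by -1.24 ± 0.23 (adjusted p = 0.0154). That call was lost without any 1 of the 6 libraries outside the knockout rich pair (adjusted p = 0.073 to 0.0982). The fall in knockout cells was lost without knockout starved replicate 1 (adjusted p = 0.0612) and in a fit of the 4 knockout libraries alone (adjusted p = 0.0904).

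**Figure D1:**
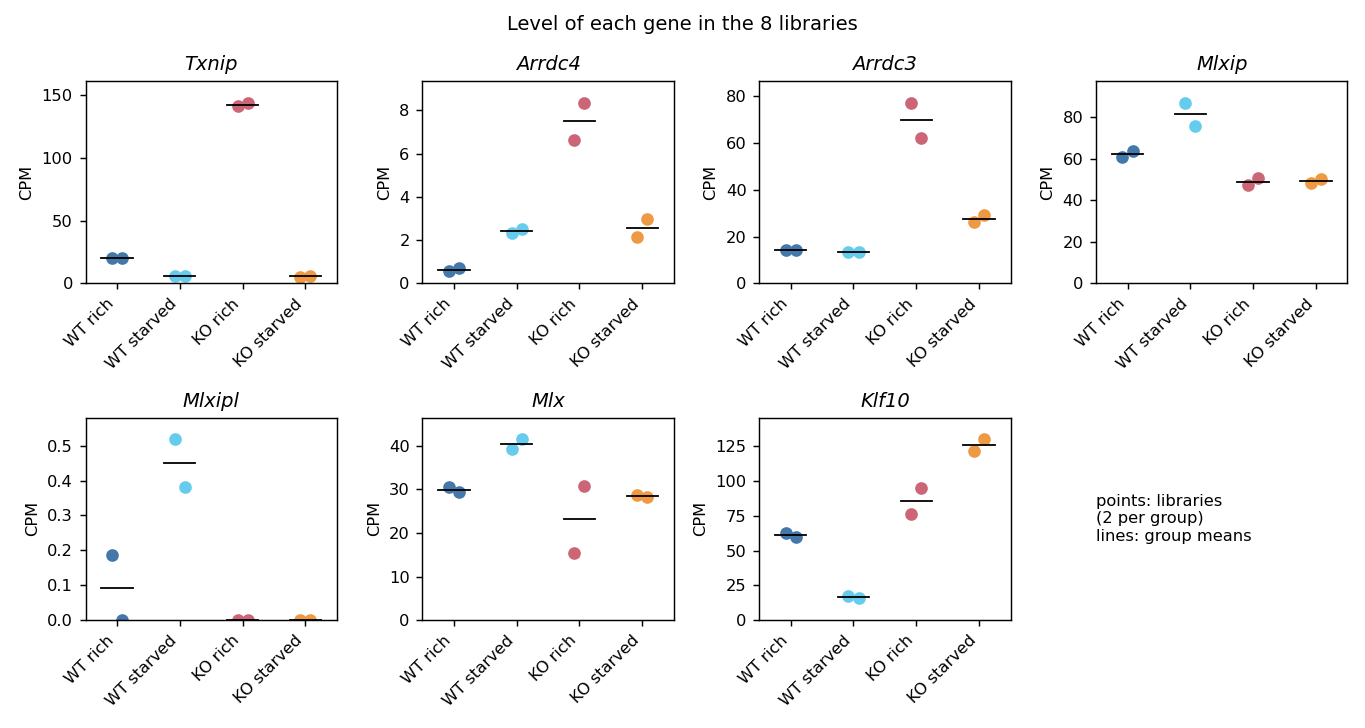
Level in CPM (linear axes starting at 0, a scale of its own for each gene) of the 7 genes in each library; points are libraries, 2 per group, and black lines are group means. Txnip, Arrdc4 and Arrdc3 were highest in knockout rich libraries (means of 142, 7.497 and 69.8 CPM), whereas Klf10 was highest in knockout starved libraries (126 CPM).

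Of the sensors, Mlxip was measured well in every library and differed between genotypes after starvation. It had 60.7 and 63.6 CPM in wild-type rich and 87.0 and 75.9 CPM in wild-type starved libraries, against 47.4 and 50.7 CPM in knockout rich and 48.5 and 50.5 CPM in knockout starved libraries. All knockout libraries were below all wild-type libraries, and the 2 knockout groups overlapped. Starvation changed it by 0.39 ± 0.13 in wild-type cells (adjusted p = 0.0556; interval 1.06-fold to 1.62-fold) and by 0.01 ± 0.13 in knockout cells (adjusted p = 0.982; interval 0.815-fold to 1.25-fold). The wild-type change passed in a fit of the 4 wild-type libraries (adjusted p = 0.000105), with DESeq2 (adjusted p = 0.03) and with limma-voom (adjusted p = 0.000413). These fits called 72.1%, 37.4% and 67.7% of all genes they tested, against 32.9% as reported. It also passed without knockout rich replicates 1 and 2 (0.36 and 0.39), where the spread comes from the closer pairs of the other groups. After starvation Mlxip was 1.65-fold lower in the knockout (-0.72 ± 0.13, adjusted p = 0.00305), and in rich medium the difference was -0.34 ± 0.13 (adjusted p = 0.071). Over all 8 libraries with library totals as the scale, the difference in rich medium passed (-0.43, adjusted p = 0.0383). It also passed without knockout rich replicate 1 or 2, again with the spread from the closer pairs. Over 17 alternatives this difference ran from -0.43 to -0.20. The call after starvation was lost with the other transcript, NM_177582 (adjusted p = 0.0543), which held 37.8% of the counts of the one used.

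Mlx, the partner both sensors need to bind DNA, passed no test. It had 30.5 and 29.4 CPM in wild-type rich, 39.3 and 41.5 CPM in wild-type starved and 28.6 and 28.3 CPM in knockout starved libraries. In knockout rich libraries it had 15.5 and 30.8 CPM, the widest gap between replicates among the 6 tested genes (ratio 1.99), with the low value in the library of smallest total, replicate 1. Starvation changed Mlx by 0.43 ± 0.28 in wild-type cells (adjusted p = 0.282; interval 0.853-fold to 2.13-fold) and by 0.28 ± 0.28 in knockout cells (adjusted p = 0.534). The knockout differed from wild type by -0.35 ± 0.28 in rich medium (adjusted p = 0.347) and by -0.51 ± 0.28 after starvation (adjusted p = 0.167). Without knockout rich replicate 1, Mlx passed for starvation in wild-type cells (0.41, adjusted p = 5.43e-05), for the genotypes after starvation (-0.50, adjusted p = 1.23e-06) and for the difference between responses (-0.50, adjusted p = 0.00248). Without replicate 2 it passed for all 5 comparisons, and the difference between responses then had the opposite sign (0.45, adjusted p = 0.0274). With 1 knockout rich library left, that library adds nothing to the estimate of the spread, which comes from the closer pairs. Mlx overlaps Psmc3ip in the annotation, a gene that rose on starvation of wild-type cells (1.18 ± 0.14, adjusted p = 0.00123) and fell in knockout cells (-0.58 ± 0.14, adjusted p = 0.0295), and shared reads were not resolved here.

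Mlxipl, the gene of ChREBP, which is best known from liver and fat, was at or near 0 in all libraries. It had 4 and 0 counts in wild-type rich and 13 and 11 counts in wild-type starved libraries, and 0 counts in all 4 knockout libraries. The 24 counts of the wild-type starved group were 5.51 times the rate of the wild-type rich group, with an exact 95% interval from 1.89 to 21.9 that covers counting error only. Set against 3 counts over the knockout starved group, the observed wild-type starved rate was 7.14 times as high. This factor leaves out the error of the 24 counts. The exact 95% interval for the ratio of knockout starved to wild-type starved ran from 0 to 0.186 and covers counting error only. In rich medium the 4 wild-type counts lay under the level that 3 counts give in the knockout group (0.101 CPM), so no fold is given, and a difference was not detectable at this depth.

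Klf10 fell 3.68-fold on starvation of wild-type cells and was 7.56-fold higher in knockout than in wild-type cells after starvation. Wild-type rich libraries had 62.5 and 60.1 CPM and wild-type starved libraries 17.5 and 15.7 CPM. Knockout rich libraries had 76.0 and 94.99 CPM and knockout starved libraries 122 and 130 CPM, so the 4 groups did not overlap and ran in the order wild-type starved, wild-type rich, knockout rich, knockout starved. The fall in wild-type cells was -1.88 ± 0.15 (adjusted p = 0.000415) and the difference after starvation 2.92 ± 0.16 (adjusted p = 1.60e-05). The responses of the genotypes differed by 2.44 ± 0.21 (adjusted p = 0.00131), and these 3 calls were kept under every alternative that was run. Smaller changes were called for starvation of knockout cells (0.55 ± 0.15, adjusted p = 0.0425) and for the knockout in rich medium, compared with wild type (0.48 ± 0.15, adjusted p = 0.0346). Both of these were lost without any 1 of the 6 libraries outside the knockout rich pair (adjusted p = 0.0913 to 0.251 and 0.0622 to 0.188). Both were also lost with library totals alone as the scale (adjusted p = 0.0731 and 0.0842), with a replicate block (0.0649 and 0.053), with limma-voom (0.183 and 0.0749) and in fits of the compared libraries alone (0.216 and 0.147). The second was lost with no filter as well (0.0567), so that 10 and 11 of 17 alternatives lost these calls.

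**Figure D2:**
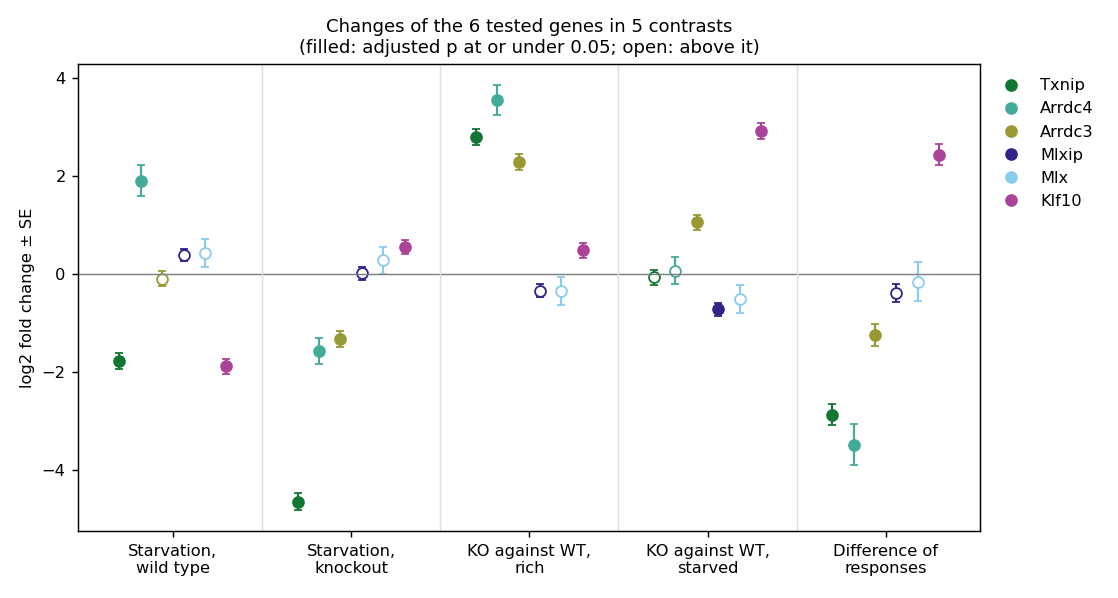
Log2 fold change ± SE (linear axis) of the 6 tested genes in the 5 comparisons; filled points have an adjusted p at or under 0.05 and open points an adjusted p above it. Txnip, Arrdc4 and Arrdc3 lay above 0 for the genotypes in rich medium (2.80, 3.55 and 2.29), and only Arrdc3 of them was still called after starvation (1.05).

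Counted over the 6 tested genes, starvation of wild-type cells gave 1 rise (Arrdc4) and 2 falls (Txnip and Klf10). Rises were called for 14.8% and falls for 18% of the 13882 genes tested (32.9% in all), so calls were common in this comparison. The median of the 6 log2 fold changes was 0.15, against 0 over all tested genes. In a fit restricted to the 4 wild-type libraries, Mlxip, Mlx and Mlxipl also rose, so that 4 of the 7 genes rose, 2 fell and Arrdc3 did not pass. That fit called 36.4% of all genes it tested as risen and 35.6% as fallen (72.1% in all). Mlxipl, with 4 and 24 counts in the 2 groups, passed the filter on low counts there. Over all 8 libraries with no filter it was not called (2.32, adjusted p = 0.259). Without knockout rich replicates 1 and 2, the log2 values were 0.36 and 0.39 for Mlxip and 0.41 and 0.43 for Mlx. For Mlxipl they were 2.35 and 2.37.

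Starvation of knockout cells gave 1 rise (Klf10) and 3 falls (Txnip, Arrdc4 and Arrdc3), against 8.44% and 9.78% of all genes (18.2% in all), with a median of -0.66. No alternative reversed these directions. Log2 values ran from -4.80 to -4.51 for Txnip, -1.82 to -1.35 for Arrdc4, -1.47 to -1.15 for Arrdc3 and 0.43 to 0.73 for Klf10. Of 17 alternatives, 1 lost the call of Txnip, 4 that of Arrdc4, 2 that of Arrdc3 and 10 that of Klf10. Fits without a knockout starved library were among them and also called far fewer of all genes. In a fit of the 4 knockout libraries alone 0 of the 6 genes were called, as were 0 of all genes at the adjusted threshold. Between the genotypes in rich medium, 4 of the 6 genes were higher in the knockout and 0 lower, against 23.4% and 20.6% of all genes (44% in all), with a median of 1.39. After starvation 2 were higher (Arrdc3 and Klf10) and 1 lower (Mlxip), against 27.8% and 26.8% (54.6% in all), with a median of 0.00062. Without knockout rich replicate 1 or 2, Mlx and Mlxipl were also lower, which gave 2 higher and 3 lower, in fits that called 80.2% and 80.3% of all genes. The difference between responses was called higher in the knockout for Klf10 and lower for Txnip, Arrdc4 and Arrdc3, against 7.42% and 5.91% of all genes (13.3% in all). The groups compared did not overlap in CPM for 6 of the 6 genes on starvation of wild-type cells, 4 on starvation of knockout cells, 5 between genotypes in rich medium and 4 after starvation. Over all tested genes those shares were 81.7%, 55.3%, 69.9% and 89.6%, so groups of 2 libraries that do not overlap were the rule and not the exception. Comparisons that share a group share its libraries, so these counts are not independent of each other.

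The remaining alpha-arrestins were not higher in the knockout, in either medium. Of 3 listed, 2 were tested, and 1 of them was lower in the knockout in rich medium and both after starvation. Over all tested genes, 20.6% were lower in rich medium and 26.8% after starvation. Arrdc1, whose product drives budding of vesicles from the cell surface, had 21.4 and 18.0 CPM in wild-type rich, 27.4 and 29.3 in wild-type starved, 1.23 and 3.71 in knockout rich and 2.25 and 2.84 CPM in knockout starved libraries. It was lower in the knockout by 7.23-fold in rich medium (-2.85 ± 0.39, adjusted p = 0.00122) and 11.1-fold after starvation (-3.48 ± 0.39, adjusted p = 0.00031). The size in rich medium depended on the library, at -2.45 without knockout rich replicate 1 and -4.00 without replicate 2. Arrdc2 had 4.79 and 4.92, 6.85 and 8.93, 3.57 and 4.27, and 2.81 and 2.41 CPM in the same order. It was 3.02-fold lower in the knockout after starvation (-1.60 ± 0.23, adjusted p = 0.00106), and in rich medium the difference was -0.29 ± 0.24 (adjusted p = 0.349). Arrdc5 had 0 counts in every library. Among beta and visual arrestins, 3 of 4 were tested, and Arrb1, the desensitizer of G protein-coupled receptors, fell on starvation of wild-type cells from 51.7 to 11.8 CPM (-2.13 ± 0.19, adjusted p = 0.000544). In knockout cells Arrb1 also fell, from 31.9 to 15.0 CPM, a call lost in 3 of 17 alternatives. It was lower in the knockout in rich medium as well, a call lost in 4 of 17.

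Mlx also belongs to the wider network of Myc, Max and the Mxd repressors, which bind E boxes, and 9 of 10 listed genes of that network were tested. On starvation of wild-type cells 2 rose and 1 fell, and in knockout cells 1 rose and 2 fell. Over all tested genes, 14.8% rose and 18% fell in wild-type cells, and 8.44% and 9.78% in knockout cells. The repressor Mxd1, a partner of both Max and Mlx, rose from 7.84 to 40.4 CPM in starved wild-type cells (2.37 ± 0.19, adjusted p = 0.000402) and was 7.66-fold lower in the knockout after starvation (adjusted p = 3.65e-05). Myc, which drives growth and glucose use, rose from 161 to 599 CPM in starved knockout cells (1.89 ± 0.12, adjusted p = 0.000558) and stood at 86.4 and 87.3 CPM in the wild-type groups. The difference between responses was called upward for Myc and downward for 3 genes, against 7.42% and 5.91% of all tested genes. The 3 were Mxd1, Mxi1 and Mxd4, the last named after its values were seen (-1.82 ± 0.38, adjusted p = 0.0223). The call of Mxd4 was lost without any 1 of the 6 libraries outside the knockout rich pair (adjusted p up to 0.125). Against wild type, 3 were higher and 2 lower in knockout rich cells and 1 higher and 4 lower in knockout starved cells. Over all tested genes, the shares were 23.4% and 20.6% in rich medium and 27.8% and 26.8% after starvation.

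Genes known as carbohydrate-response or ChREBP targets passed the test in both directions. Of 18 listed, 14 were tested. On starvation of wild-type cells 2 rose and 6 fell (median -0.46), and in knockout cells 2 rose and 3 fell (median -0.14). Over all tested genes, 14.8% rose and 18% fell in wild-type cells, and 8.44% and 9.78% in knockout cells. The fatty acid elongase Elovl6 fell from 84.4 to 6.02 CPM in wild-type cells (-3.81 ± 0.15, adjusted p = 5.61e-05) and from 123 to 28.3 CPM in knockout cells (-2.12 ± 0.14, adjusted p = 0.000644). The desaturase Scd1 fell from 370 to 127 CPM in wild-type cells (-1.54 ± 0.13, adjusted p = 0.00047). In knockout cells Scd1 fell from 336 to 181 CPM, a call lost in 3 of 17 alternatives. Bhlhe40, a repressor linked to the circadian clock, fell from 36.5 to 7.89 CPM in wild-type cells (-2.21 ± 0.21, adjusted p = 0.00058) and had 140 and 162 CPM in rich and starved knockout cells. Like Klf10, it was thus higher in the knockout after starvation (4.36 ± 0.22, adjusted p = 1.24e-05). Among the rises was Fgf21 in knockout cells, from 0.186 to 2.20 CPM on starvation. Its counts were low (8 in the rich and 106 in the starved group), and the call was lost in 4 of 16 alternatives. Against wild type, 3 of the 14 genes were higher and 4 lower in knockout rich cells. In knockout starved cells 4 were higher and 4 lower. Over all tested genes, the shares were 23.4% and 20.6% in rich medium and 27.8% and 26.8% after starvation.

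Of 11 genes of glucose uptake and of the making and use of glucose-6-phosphate, 9 were tested. On starvation 0 rose and 2 fell in wild-type cells, and 0 rose and 0 fell in knockout cells. Over all tested genes, 14.8% rose and 18% fell in wild-type cells, and 8.44% and 9.78% in knockout cells. Glucose-6-phosphate dehydrogenase G6pdx fell from 154 to 82.3 CPM in wild-type cells (-0.90 ± 0.12, adjusted p = 0.00193). The transporter gene Slc2a1, whose product Txnip restrains, had 77.0 and 82.3 CPM in rich and starved wild-type cells and 147 and 240 CPM in rich and starved knockout cells (1.54 ± 0.22 for knockout against wild type after starvation, adjusted p = 0.001). Hexokinase 2 (Hk2), which makes glucose-6-phosphate, was 3.15-fold higher in the knockout in rich medium and 3.99-fold higher after starvation (adjusted p = 0.000164 and 5.20e-05). In all, 2 of 9 were higher and 2 lower in the knockout in rich medium, and 3 higher and 3 lower after starvation. Over all tested genes, the shares were 23.4% and 20.6% in rich medium and 27.8% and 26.8% after starvation.

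Partners of these proteins were described in the same way. Their counts stand beside shares over all tested genes of 14.8% risen and 18% fallen on starvation of wild-type cells. In knockout cells these shares were 8.44% and 9.78%. Between starved genotypes 27.8% of all tested genes were higher and 26.8% lower in the knockout. Of 5 thioredoxin genes, 1 rose and 1 fell on starvation of wild-type cells and 0 passed in knockout cells. Mitochondrial thioredoxin Txn2 was higher in the knockout in rich medium (93.9 against 165 CPM, 0.81 ± 0.14, adjusted p = 0.00335). All 7 ubiquitin ligases of the Nedd4 family, which bind alpha-arrestins, were tested. In wild-type cells 0 passed on starvation, in knockout cells 3 rose and 0 fell, and after starvation 4 were higher in the knockout and 0 lower, among them Wwp2 (88.2 against 201 CPM, 1.19 ± 0.16, adjusted p = 0.000684). The 3 rises in starved knockout cells, of Smurf1, Nedd4l and Wwp2, were all lost without knockout starved replicate 1 (adjusted p = 0.101, 0.141 and 0.268) and without replicate 2 (adjusted p = 0.11, 0.153 and 0.193). Of 7 genes of 14-3-3 proteins, which hold MondoA and ChREBP in the cytoplasm, 1 rose and 3 fell on starvation of wild-type cells and 0 passed in knockout cells. Ywhaz fell from 731 to 355 CPM in wild-type cells (-1.04 ± 0.15, adjusted p = 0.00251) and was higher in starved knockout than in starved wild-type cells (1.26 ± 0.15, adjusted p = 0.000393). Among relatives of Klf10, 4 of 5 were tested. On starvation of wild-type cells 1 rose and 1 fell, and between starved genotypes 1 was higher and 1 lower in the knockout. Klf11 rose from 4.03 to 16.0 CPM on starvation of wild-type cells (1.98 ± 0.24, adjusted p = 0.00145), while Klf10 fell. After starvation Klf11 was lower in the knockout (-1.43 ± 0.23, adjusted p = 0.00189), while Klf10 was higher. Klf13 went the same way as Klf10. It fell from 29.1 to 9.82 CPM in wild-type cells and was higher in starved knockout cells, at 27.1 CPM. Each of these 2 calls of Klf13 was lost in 4 of 17 alternatives.

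**Figure D3:**
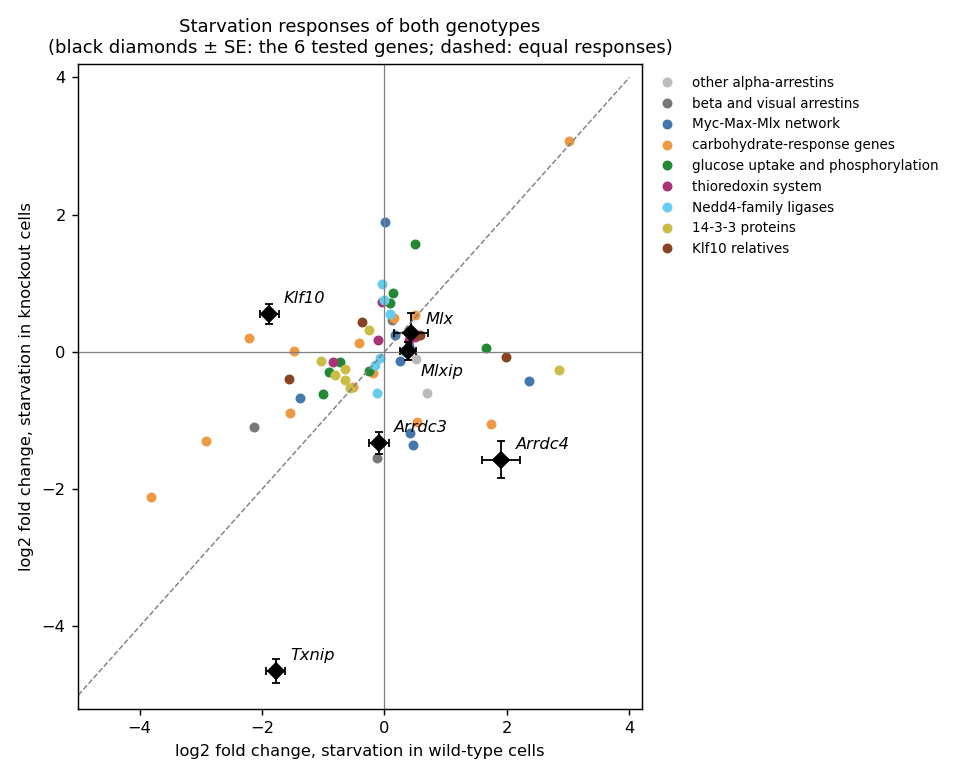
Log2 fold change on starvation in wild-type cells (horizontal axis) against that in knockout cells (vertical axis), for the 6 tested genes (black diamonds ± SE) and 57 genes of the related lists (coloured points); 2 listed genes with 0 counts in a group are left out. Txnip lay far below the line of equal responses, Arrdc4 and Klf10 lay in opposite quadrants, and Mlxip and Mlx lay near 0.

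The genes most like 3 of the members were found by the root-mean-square difference in log2 CPM, each gene centred on its own mean, over the 8 libraries and 10604 candidates with a group mean of at least 5 CPM. Genes with placeholder symbols (Gm, Rik and the like, 673 of them) were left out of the candidates. For Txnip these were Idh1 (0.78), Slfn9 (0.87) and Ccne1 (0.88). The overlapping gene Gm15441, one of those left out, was closer to Txnip, at 0.31. Idh1, an NADP-dependent isocitrate dehydrogenase, had means of 52.0, 21.0, 142 and 22.5 CPM in wild-type rich, wild-type starved, knockout rich and knockout starved cells. For Arrdc4 they were Fam212b (0.43), Tnfsf9 (0.43) and Trp53inp1 (0.47). For Klf10 they were Tnxb (0.12), Nr1d1 (0.16) and Nod1 (0.17), while the left-out A430105I19Rik was closer, at 0.096. Nr1d1, the clock repressor Rev-erb alpha, had means of 22.3, 7.31, 39.6 and 55.9 CPM in the same order. The distance is a description of these libraries.

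**Figure D4:**
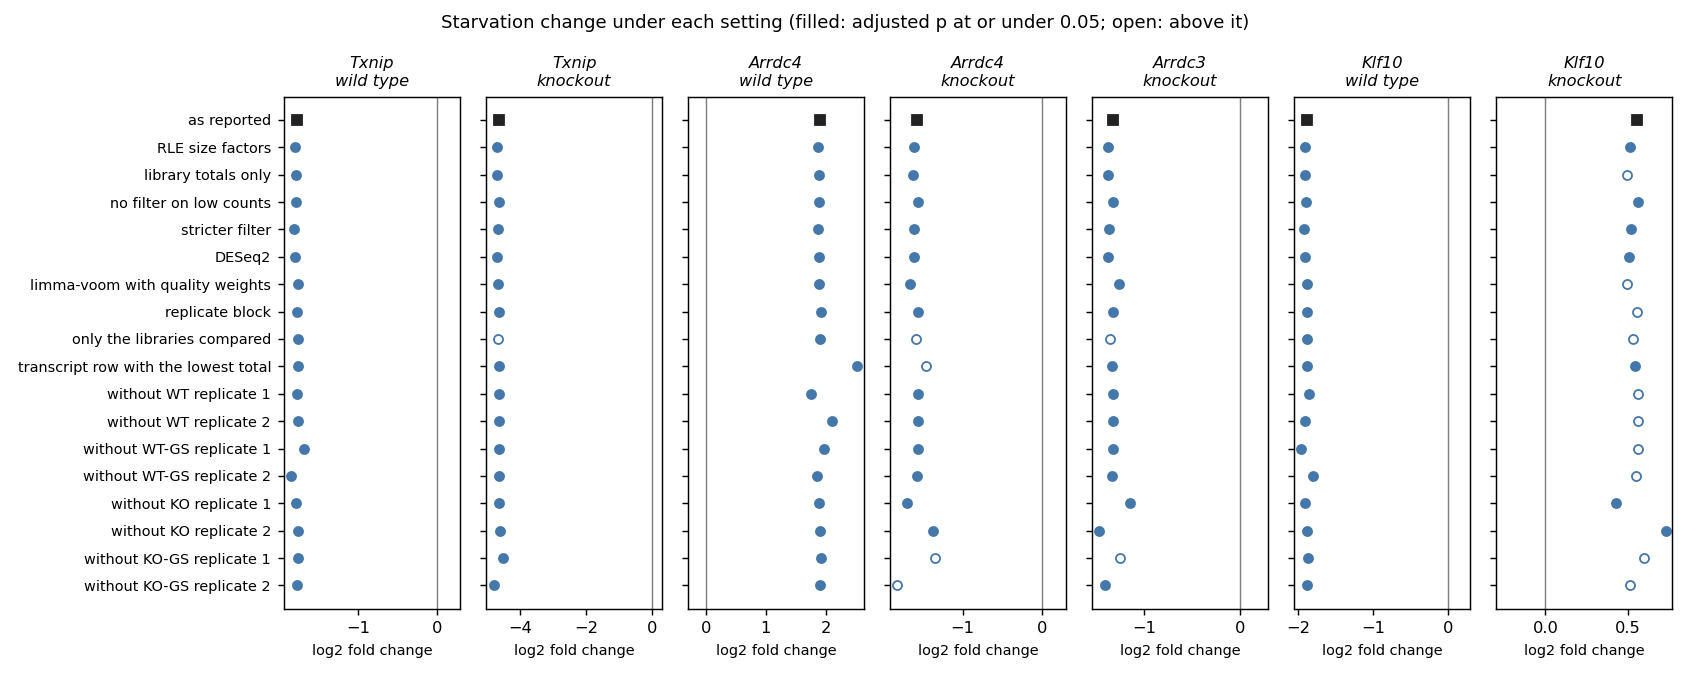
Log2 fold change on starvation for 4 of the genes, in wild-type or knockout cells as titled, as reported (black squares) and under each alternative setting (circles); filled symbols have an adjusted p at or under 0.05. Values for Txnip stayed between -1.86 and -1.70 in wild-type and between -4.80 and -4.51 in knockout cells, and most open circles belong to Klf10 in knockout cells (0.43 to 0.73).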

How the data were processed

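The deposited table holds whole-number read counts per transcript (31055 rows, 23366 gene symbols) for 8 RNA-seq libraries of total RNA. Per the submitters' processing notes, TopHat2 2.0.9, bedtools and the mm9 build were used in the series. No source used here gives the counting program, its strand setting or the treatment of reads with several matches. The 4 ChIP-seq samples of the series were not analysed here.

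For each symbol the transcript with the highest total was kept. Many transcripts of a gene carry nearly the same counts: of 3118 symbols with several transcripts and at least 100 counts, 72.9% had a lowest row of at least 90% of the highest. Genes were filtered with filterByExpr, scaled with TMM and tested with edgeR 4.0.16 (quasi-likelihood test, 1 coefficient per group over all 8 libraries, R 4.3.3). Adjusted p-values are Benjamini-Hochberg values over all 13882 tested genes, with a threshold of 0.05, and a gene past it is said to have risen, fallen or been called. Fold changes are log2 values ± SE, with 95% intervals. CPM are edgeR's counts relative to the TMM-scaled library total, and their errors are SDs over 2 libraries. The code was tested on simulated counts.

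All members were described. From each related list, at most the 3 genes with the smallest p per comparison were named, and the 3 genes most like Txnip, Arrdc4 and Klf10. The members and lists were chosen with earlier results of these data known. Alternatives were RLE or plain totals as the scale, no filter, a filter of 5 CPM in 2 libraries, DESeq2 1.42.0, limma-voom with quality weights (limma 3.58.1), a replicate block, the compared libraries alone, the transcript of lowest total, and leaving out each library.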

Additional observations from a re-analysis of the deposited data

Results flagged for a closer look

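The starvation response differed between the genotypes, by the edgeR test of the difference itself, for 4 of the 6 tested genes. The 12 genes given below from related lists were named because they passed this test, so their number is not a result. Of the genes of glucose uptake and glucose-6-phosphate, 0 of 9 passed, and of the thioredoxin genes 0 of 5. Values are the log2 response of knockout cells minus that of wild-type cells, and 13.3% of all tested genes passed this test.

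The difference was -2.87 ± 0.22 (SE) for Txnip, -3.48 ± 0.41 for Arrdc4, -1.24 ± 0.23 for Arrdc3 and 2.44 ± 0.21 for Klf10. In the network of Myc, Max and Mlx it was -2.79 for Mxd1, -1.59 for Mxi1, -1.82 for Mxd4 and 1.88 for Myc. Among carbohydrate-response genes it was 1.69 for Elovl6, 2.42 for Bhlhe40 and 7.04 for Rgs16. Rgs16 had 0 counts in knockout rich libraries, so its fitted value depends on the prior count and is not a measured size. The other differences were -1.31 for Arrdc2, 1.03 for Arrb1, 1.04 for the ubiquitin ligase gene Smurf1, 0.91 for Ywhaz and -2.05 for Klf11.

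Without any 1 of the 6 libraries outside the knockout rich pair, the calls of Arrdc3, Arrdc2, Mxd4, Arrb1, Rgs16, Smurf1 and Ywhaz were lost. That of Klf11 was lost without any of these libraries except wild-type rich replicate 2. With all 8 libraries, the calls of Arrdc2 and Rgs16 were also lost with limma-voom. Those of Arrdc2, Arrb1 and Smurf1 were lost with a replicate block, and those of Arrb1 and Smurf1 with library totals alone as the scale.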

How the results depend on the processing

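The depth of 1 knockout rich library (8447016 counts), the gap between that pair and 2 libraries per group limit what can be told apart here. Counts of called genes moved most when 1 library was left out. Over all genes they ran from 1580 to 9561 for starvation in wild-type cells, 265 to 8409 for starvation in knockout cells, 3369 to 10336 for the genotypes in rich medium, 5127 to 11435 after starvation and 452 to 8020 for the difference between responses. The highest of each came without a knockout rich library, and the lowest for starvation in knockout cells without a knockout starved one. Over the 7 genes the ranges were 3 to 6, 1 to 5, 3 to 6, 3 to 5 and 3 to 6.

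With limma-voom, 9393 genes were called for starvation in wild-type cells (5 of the 7 genes), 1316 in knockout cells and 3748 for the genotypes in rich medium. With the compared libraries alone these were 9332 (6 of the 7), 0 (0 of the 7) and 3245. The 0 comes from edgeR, with 2803 of 12693 genes at an unadjusted p under 0.05, while DESeq2 over all 8 libraries called 3596. DESeq2 called 2880 genes for the difference between responses.

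Between groups, the differences of replicate 1 from replicate 2 correlated at -0.0256 to 0.0629 across genes. With 2 libraries per group, these values cannot tell whether replicate numbers pair the samples. With a replicate block, 4123, 2111, 5802, 7361 and 1490 genes were called in the 5 comparisons, in the order above, and 3, 3, 3, 3 and 4 of the 7 genes.

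Reversed directions were in differences near 0, apart from Arrdc4 with its other transcript and the response of Mlx. Mlxip on starvation of knockout cells was -0.0330 with RLE, -0.0426 with totals, -0.0240 with the stricter filter, -0.0330 with DESeq2, -0.00991 with limma-voom and -0.0113 in the knockout libraries alone. Leaving out 1 library gave -0.0141 (without knockout rich replicate 1) to 0.0709. Mlx there ran from -0.0935 (without knockout rich replicate 1) to 0.88 (without replicate 2). Between starved genotypes, Txnip ran from -0.23 to 0.0741 without knockout starved replicates 2 and 1. Arrdc4 was -0.0480 with totals, -0.86 with its other transcript (adjusted p = 0.152), and -0.19 to 0.29 without knockout starved replicates 2 and 1. The difference between responses of Mlx was -0.50 and 0.45 without knockout rich replicates 1 and 2. The cause was not tested. Totals moved the median of all genes by -0.12 between starved genotypes and by less than 0.1 elsewhere.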
